A study of Mus musculus with 8 samples.

Results

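The heterogeneous nuclear ribonucleoproteins (hnRNP), the serine/arginine-rich splicing factors (SR), the SF3a and SF3b subunits of the U2 particle (SF3) and the proteins of the small nuclear ribonucleoproteins (snRNP) were followed in a mouse leukemia line with and without Cop1. The members were all genes in the table of splice junctions whose symbol begins with Hnrnp, Srsf and a digit, Sf3a, Sf3b or Snrp. They were 48 of the 13378 genes and 522 of the 134051 junctions: 19 hnRNP, 10 SR, 8 SF3 and 11 snRNP genes. The libraries were RNA-seq of FT1CL cells, an acute myeloid leukemia line derived from the marrow of a Cop1 conditional knockout mouse with Cre-ERT2 at Rosa26. That marrow was collected 5 days after 150 mg/kg of 5-fluorouracil from an animal of 8 weeks, and was transduced with pMYs-Trib1 retrovirus, so that all 8 libraries share the Trib1 transgene, the Cre-ERT2 background and 1 line of cells. Cells grew with interleukin-3 at 5 ng/mL in Iscove medium that held 10% fetal bovine serum. The 4 wild-type libraries (genotype Cop1 +/+ in the labels) came from untreated cells and the 4 knockout libraries (Cop1 ko/ko) from cells given 4-hydroxytamoxifen, so genotype and drug changed together and cannot be told apart. No label says that the 4 libraries of a group were separate cultures, so a p-value here reflects how far the libraries scatter, and that scatter may be technical.

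Introns are removed by the spliceosome, which is built on each transcript from snRNPs, each a small nuclear RNA with a ring of Sm proteins and a few particle-specific proteins. SF3a and SF3b belong to the U2 snRNP, which marks the branch point of the intron. SR proteins mostly bind exons and favour their use, whereas hnRNP proteins coat nascent RNA and often oppose it, and many genes of both kinds regulate their own mRNA through alternative exons or 3′ UTR introns that send the transcript to nonsense-mediated decay.

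Cop1 itself checked the labels: its junction reads, scaled to 1000000 per library (RPM), were 159, 162, 166 and 162 in wild-type libraries 1 to 4 and 81.3, 70.3, 76.5 and 66.7 in knockout libraries 1 to 4, a remaining level of 45.4% (limma, adjusted p = 0.00019). Depth was 17333302 to 22469109 junction reads per library and did not differ between groups beyond the spread (exact permutation p = 0.60, two-sided, smallest possible 0.0286). All 12 myeloid markers listed had reads, and their summed level was 1959 to 4696 RPM in wild type and 5428 to 8389 RPM in knockout. Of the T cell markers, Cd3e, Cd4 and Cd8a had no values, and the rest summed to at most 6.15 RPM in any library. Erythroid markers summed to 53.3 to 131 RPM in wild type and 21.2 to 133 RPM in knockout, megakaryocyte markers to 526 to 865 and 519 to 901 RPM, and stromal and endothelial markers to 409 to 560 and 339 to 477 RPM. These sums hide unlike members. Of the myeloid markers, Ptprc, Csf2rb, Ctsg and Cd33 were higher in every knockout library, and the groups overlapped in all others. Csf2rb was at 916.6 to 1321 RPM in wild type and 2231 to 2737 RPM in knockout. Kit was at 41.27 to 192 and 27.64 to 101.3 RPM, and Prtn3 at 10.44 to 157 and 15.67 to 92.82 RPM. Itga2b, at 515.1 to 891.6 RPM, made up most of the megakaryocyte sum. Pdgfrb was at 150.3 to 206.4 RPM in wild type and 22.9 to 65.87 RPM in knockout. Pecam1 was at 236.1 to 390.5 and 315.9 to 428.6 RPM, and Col1a1 reached at most 0.3097 RPM. The part of the difference in the myeloid sum in the results below was not tested. In bulk RNA, fewer cells of a type and less RNA per cell cannot be told apart.

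The splicing-factor genes were lower in the knockout in most cases, and few of their junctions passed a test for a changed share within the gene. Of the 48 members, 38 fell and 0 rose (limma on log2(RPM + 1), Benjamini-Hochberg adjusted p below 0.05 over the 10996 genes tested). Among all genes tested, 16.6% fell and 10.5% rose. Each of the 38 had 4 knockout values below its 4 wild-type values, but these genes had been picked by that test. How many of all genes tested had groups apart was not counted. The members' share of all junction reads was 1.43%, 1.43%, 1.41% and 1.52% in wild-type libraries 1 to 4 and 1.04%, 1.08%, 1.01% and 1.17% in knockout libraries 1 to 4. The median log2 fold change, knockout minus wild type, was -0.38 over the members and -0.07 over all genes tested. It was -0.37 for hnRNP, -0.44 for SR, -0.44 for SF3 and -0.36 for snRNP genes. All 48 members passed the minimum mean of 1 RPM. At an unadjusted p below 0.05, 2 members were higher, edgeR called 0 higher and DESeq2 called 2, Hnrnpll and Srsf2. Scaling by trimmed means (TMM) in place of total reads called 31 members lower and 0 higher, against 12.2% of all genes lower. It also moved the balance over all genes from 1157 higher and 1822 lower to 1426 higher and 1346 lower, and the members' median to -0.29.

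**Figure D1:**
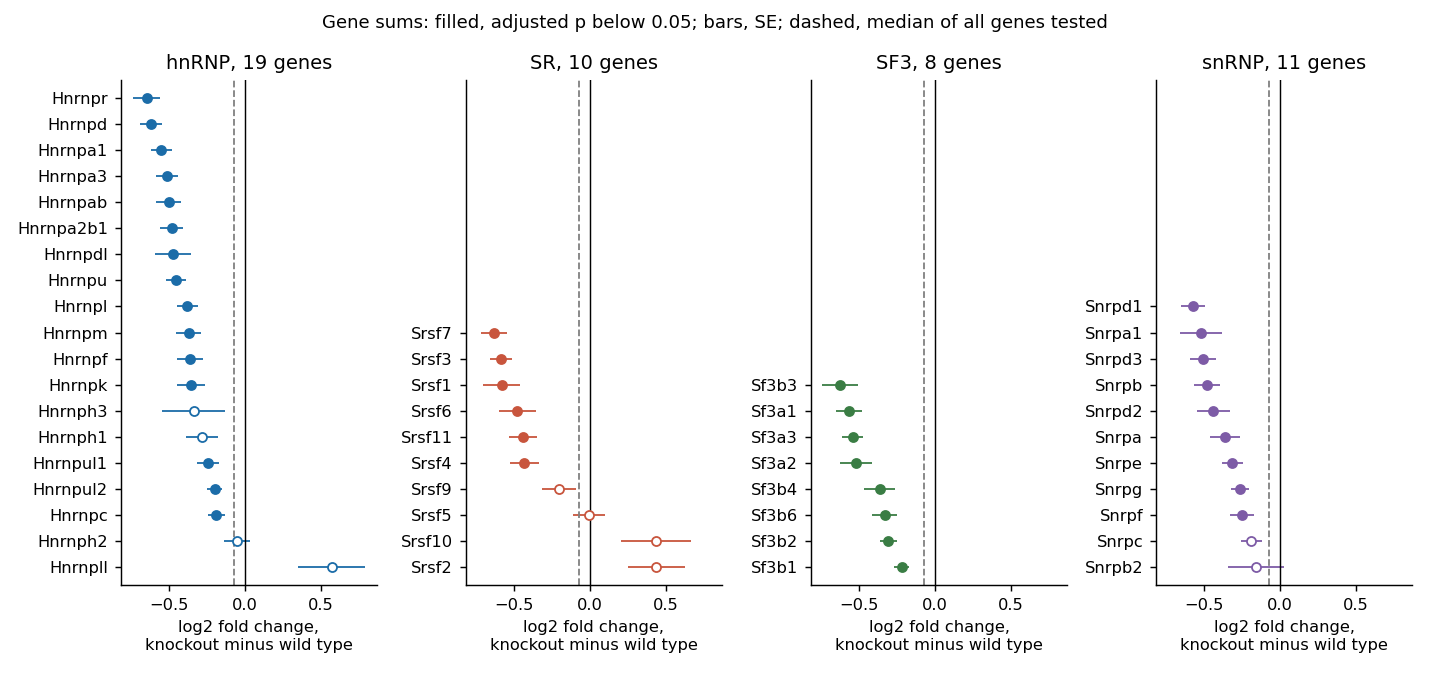
Log2 fold change of the gene sum (x axis, knockout minus wild type, limma on log2(RPM + 1), n = 4 libraries per group) for the 19 hnRNP, 10 SR, 8 SF3 and 11 snRNP genes; points are estimates, bars their SE, filled points passed an adjusted p of 0.05 and the dashed line is the median of all genes tested, -0.07. All 8 SF3 genes lie left of that line, and the 3 genes right of 0 are Hnrnpll, Srsf2 and Srsf10, none of which passed.

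Within the genes, 351 junctions of 47 members were deep enough to test as a share of their gene's reads (all members except Srsf9), and 4 junctions in 2 genes, Hnrnpa2b1 and Hnrnpd, changed their share (limma on log2 odds, adjusted p below 0.05). Over all genes this held for 0.0859% of 76793 junctions. Of the members' junctions, 242, or 69.0%, lay within 0.1 of their wild-type log2 odds, against 47.0% of all junctions tested. The members' junctions were deeper, 270 of the 351 reaching a mean of 100 reads against 35348 of 76793 over all genes, and the part of depth in this contrast was not tested. Without any removal of junctions that hold implausibly low values, described below, the same test called 0 of 415 member junctions, with 26 at an unadjusted p below 0.05. A different test, limma's diffSplice, called 6 junctions in 5 members, against 0.404% of all junctions. Of the 4 junctions above it called 1, Hnrnpa2b1 E11.3-E11.5. Leaving out 1 library changed the number of called member junctions to 1 (when wild-type library 1 or knockout 3 was omitted), 2 (wild-type 4 or knockout 2) or left it at 3 or 4.

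**Figure D2:**
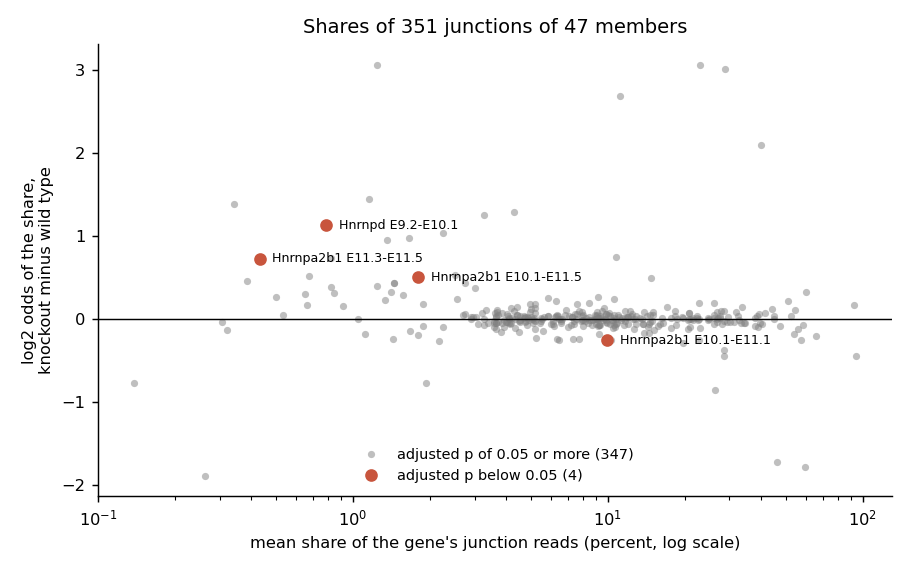
Each point is 1 of the 351 tested junctions of 47 members: the x axis is its mean share of the gene's junction reads (percent, log scale) and the y axis the log2 odds of the share, knockout minus wild type (n = 4 libraries per group). The 4 red points passed an adjusted p of 0.05, and the points farthest from 0, up to 3.07, did not pass.

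Among the hnRNP genes, which package nascent transcripts and bias splice-site choice, 15 of 19 fell. Hnrnpr, an RNA-binding relative of Syncrip, had the lowest fold change of the family: it read 110, 117, 104 and 119 RPM in wild-type libraries 1 to 4 and 67.8, 72.9, 64.3 and 81.6 RPM in knockout libraries 1 to 4, with -0.65 ± 0.089 (SE) as its log2 fold change (adjusted p = 0.0022). Hnrnpd, also called AUF1 and known for binding AU-rich elements in mRNA, read 513, 531, 494 and 555 RPM in wild type and 347, 356, 303 and 359 RPM in knockout, a log2 fold change of -0.62 ± 0.073 (adjusted p = 0.0014). In both genes the highest knockout library lay far below the lowest wild-type library. Hnrnpa1, the classical antagonist of SR proteins at exonic silencers, read 513, 465, 440 and 453 RPM in wild type and 321, 311, 299 and 345 RPM in knockout (log2 fold change -0.55 ± 0.072, adjusted p = 0.0020). Hnrnpa3, a close relative, read 1399, 1402, 1364 and 1413 RPM in wild type and 998, 944, 882 and 1090 RPM in knockout (log2 fold change -0.51 ± 0.071, adjusted p = 0.0022). These A/B-type proteins bind related sequences, and their knockout values again did not reach the wild-type range. Hnrnpa2b1, which also sorts and transports RNA, read 2442, 2406, 2346 and 2593 RPM in wild type and 1611, 1796, 1638 and 1982 RPM in knockout (log2 fold change -0.48 ± 0.077, adjusted p = 0.0037). Hnrnpu, a nuclear scaffold protein, read 1269, 1242, 1211 and 1335 RPM in wild type and 898, 925, 861 and 1010 RPM in knockout (log2 fold change -0.45 ± 0.066, adjusted p = 0.0026). Library 4 was the highest of the knockout libraries in all 6 of these genes.

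The other 9 hnRNP genes that fell ranged from Hnrnpab at -0.50 through Hnrnpdl (-0.47), Hnrnpl (-0.38), Hnrnpm (-0.37), Hnrnpf (-0.36), Hnrnpk (-0.36), Hnrnpul1 (-0.24) and Hnrnpul2 (-0.20) to Hnrnpc at -0.19 on the log2 scale. Hnrnpl and Hnrnpm are splicing regulators, Hnrnpk binds C-rich RNA and Hnrnpc binds U-rich tracts. Of the H and F group, which bind G-runs, only Hnrnpf passed. Hnrnph1 (-0.29, adjusted p = 0.075) and Hnrnph3 (-0.34, adjusted p = 0.26) were also below 0, and Hnrnph2 was near 0 (-0.05, adjusted p = 0.68, and 0.03 under TMM). When junctions with fewer predicted reads were also screened, Hnrnph3 was at -0.78 (adjusted p = 0.0027, within 0.0027 to 0.65 over 19 alternatives). Without knockout library 4, Hnrnph1 was at -0.33 (adjusted p = 0.045, within 0.045 to 0.95). Hnrnpll, an hnRNP L relative known for splicing of the Ptprc (CD45) transcript in lymphocytes, was the single family member above 0. It read 29.2, 34.0, 33.7 and 53.4 RPM in wild type and 43.7, 78.1, 49.4 and 53.5 RPM in knockout, a log2 fold change of 0.57 ± 0.223 (adjusted p = 0.090). Wild-type library 4 lay inside the knockout range. With the replicate number as a block its adjusted p was 0.044, by DESeq2 it was 0.020, without wild-type library 4 it was 0.029, and over 19 alternatives it ran from 0.020 to 0.20. Several of the smaller falls rested on all 8 libraries. Hnrnpc lost its call without any 1 library other than knockout library 4 (adjusted p 0.060 to 0.11), and Hnrnpul1 without any other than knockout library 1 (0.050 to 0.095). Hnrnpk lost it without knockout libraries 1, 2 or 3 or wild-type library 1 (0.052 to 0.058), Hnrnpul2 without knockout libraries 1 or 3 or wild-type library 2 (0.052 to 0.062), and Hnrnpdl without knockout libraries 1 or 3 (0.052 to 0.055). TMM scaling also ended the calls of Hnrnpc, Hnrnpul1 and Hnrnpul2.

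Hnrnpa2b1 held 3 of the 4 junctions that changed their share, all at the 3′ end of the gene. The gene lies at chr6:51460932-51469894 on the minus strand (build mm10, Gencode M21). The table numbers exon blocks and gives no coordinates, so its blocks were matched to Gencode by the order of donors and acceptors. From the donor of the exon at chr6:51463411-51463493, Gencode has 3 acceptors, all within the 3′ UTR of the transcripts that use them. These correspond to junctions E10.1-E11.1, E10.1-E11.3 and E10.1-E11.5 of the table, and a further junction, E11.3-E11.5, leaves the middle block. The spliced RNA sequence across each is shown as DNA from the Gencode transcripts, with 15 bases of the upstream exon in lower case and 15 bases of the downstream exon in capitals, because the choice among these joins is what differed.
Hnrnpa2b1 E10.1-E11.1 (acceptor at 51463254): tcctacttaccatggGCTTCACTGTATAAA
Hnrnpa2b1 E10.1-E11.3 (acceptor at 51462055): tcctacttaccatggCATTGATATGAACCA
Hnrnpa2b1 E10.1-E11.5 (acceptor at 51461433): tcctacttaccatggGAAGGTGTCTTGCTG
Hnrnpa2b1 E11.3-E11.5 (51461920 to 51461433): gttggtagtaaaatgGAAGGTGTCTTGCTG

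The nearest acceptor, E10.1-E11.1, held 10.7%, 10.9%, 10.4% and 10.9% of the gene's junction reads in wild-type libraries 1 to 4 and 9.61%, 8.50%, 8.96% and 9.47% in knockout libraries 1 to 4 (log2 odds -0.26 ± 0.037, SE, adjusted p = 0.016). The farthest acceptor, E10.1-E11.5, held 1.5005%, 1.47%, 1.70% and 1.32% in wild type and 1.96%, 2.21%, 2.22% and 2.02% in knockout (log2 odds 0.50 ± 0.070, adjusted p = 0.0062). The join that leaves the middle block, E11.3-E11.5, held 0.308%, 0.329%, 0.320% and 0.338% in wild type and 0.469%, 0.630%, 0.592% and 0.465% in knockout (log2 odds 0.72 ± 0.115, adjusted p = 0.016). In all 3 the groups were apart: every knockout share was lower for the nearest acceptor and higher for the other joins. The middle acceptor, E10.1-E11.3, held 0.621 ± 0.120% and 1.03 ± 0.161% (SD, n = 4) and also did not overlap, with an adjusted p of 0.39 that became 0.0092 with the replicate block and ran from 2.5e-05 to 0.83 over 13 alternatives. In RPM, E10.1-E11.1 was at 263 ± 15.5 and 160 ± 18.5 RPM (SD, n = 4), whereas E10.1-E11.5 was at 36.6 ± 2.39 and 37.0 ± 3.89 RPM. In Gencode the nearest acceptor belongs to 3 transcripts, all annotated as protein coding, and the middle acceptor to 1 protein-coding and 2 nonsense-mediated decay transcripts. The farthest acceptor belongs to 1 protein-coding transcript, and its join from the middle block to 1 protein-coding, 2 nonsense-mediated decay and 1 retained-intron transcripts. The call on E10.1-E11.1 was lost without wild-type libraries 1, 2 or 4 or knockout library 3 (adjusted p 0.064 to 0.11) and by diffSplice (0.083, within 6.9e-05 to 0.25 over 13 alternatives), and that on E11.3-E11.5 without any of wild-type library 1 and knockout libraries 2 and 3 (0.061 to 0.084). The call on E10.1-E11.5 stood without each library in turn, and diffSplice gave it an adjusted p of 0.068, within a range of 3.3e-05 to 0.22 over 13 alternatives. By contrast, inclusion of the exon in block 8 of Hnrnpa2b1 averaged 73.5 ± 1.09% (SD, n = 4) without Cop1 loss and 73.4 ± 1.43% with it.

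Hnrnpd held the other called junction, E9.2-E10.1, which leaves block 9, a block between the exon that ends at 99962515 and the one that begins at 99961333 on chr5, minus strand. In Gencode M21, block 9 corresponds to an exon at chr5:99962098-99962204 in 2 transcripts and to a shorter form of it, from 99962134, in 1 more, all 3 annotated as nonsense-mediated decay, while 4 protein-coding transcripts skip it. It lies in the 3′ UTR, and the joins are shown because the first skips this exon and the second leaves it.
Hnrnpd E8.1-E10.1 (99962515 to 99961333): acttatccccaacagGTGGTGAAGCAGTAT
Hnrnpd E9.2-E10.1 (99962098 to 99961333): gaatgctgccgtttgGTGGTGAAGCAGTAT

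The join that leaves block 9 held 0.446%, 0.649%, 0.460% and 0.425% of Hnrnpd junction reads in wild type and 0.998%, 1.30%, 1.14% and 0.869% in knockout (log2 odds 1.13 ± 0.193, SE, adjusted p = 0.026). The groups did not overlap, on 42 to 65 reads per wild-type library and 67 to 80 per knockout library. The skipping join held 10.9 ± 0.303% (SD, n = 4) in wild type against 10.6 ± 0.326% in knockout (log2 odds -0.06, adjusted p = 0.96). The join that enters block 9, E8.1-E9.1, went the other way: its log2 odds were -1.89 (adjusted p = 0.96), and diffSplice called it lower (adjusted p = 0.0062). It had 59, 42, 5 and 35 reads in wild type and 44, 1, 5 and 1 in knockout, and changes of that size from library to library within a group recur at other junctions of the table. Inclusion of block 9 computed from both of these joins was 3.70 ± 1.147% and 5.63 ± 1.37% (SD, n = 4), with overlapping groups. Through the other donor of the block, E9.1-E10.1, it was 1.602 ± 0.864% and 1.02 ± 1.31%, which also overlapped. The call on E9.2-E10.1 was lost in 6 of the 8 analyses without 1 library, the exceptions being wild-type library 2 and knockout library 4, with adjusted p values of 0.067 to 0.12. It was also lost by diffSplice (adjusted p = 0.55), with all junctions as deposited (0.25) and without both libraries numbered 4 (0.061), within 0.015 to 0.55 over 12 alternatives. Another exon of Hnrnpd, block 7, was included at 98.1%, 98.6%, 98.2% and 98.8% in wild type and 97.9%, 95.4%, 92.7% and 95.6% in knockout. These groups did not overlap, and the skipping join behind them rested on 13 to 48 reads per library and did not pass (adjusted p = 0.51).

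**Figure D3:**
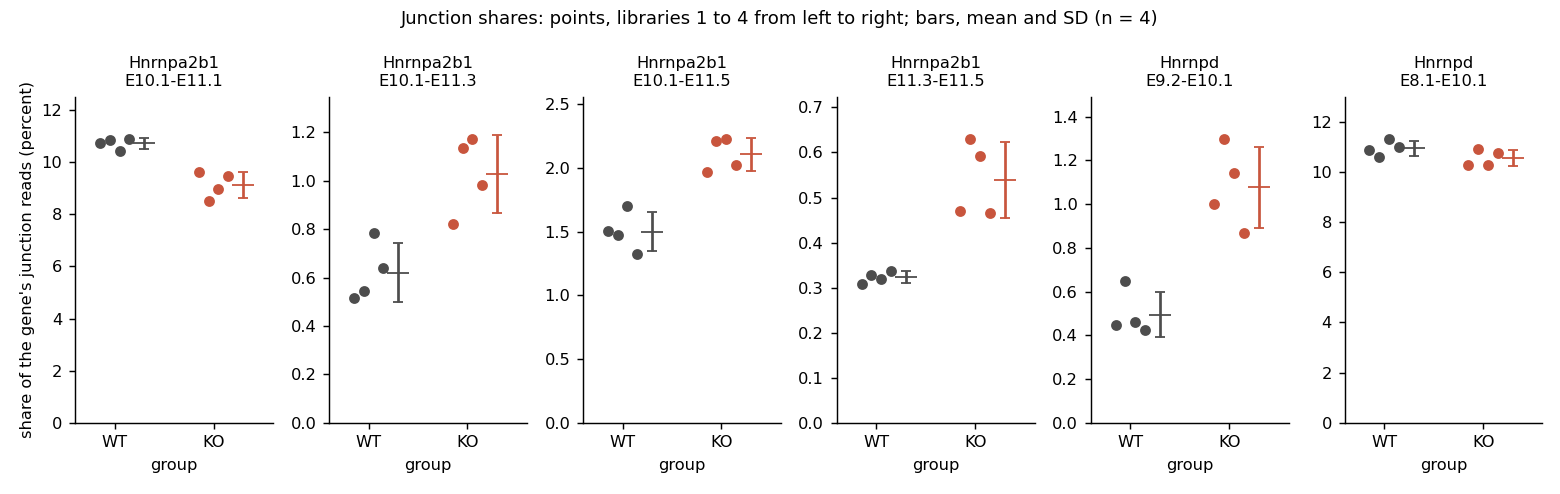
Share of the gene's junction reads (y axis, percent, from 0) in each library of wild type (grey) and knockout (red) for 4 joins of Hnrnpa2b1 and 2 of Hnrnpd; points are libraries 1 to 4, crosses with bars the mean and SD (n = 4). The first panel is the acceptor whose share fell from a mean of 10.7% to 9.13%, the next panels for Hnrnpa2b1 are joins with higher shares in every knockout library, and the last is the Hnrnpd join that skips block 9, whose share did not pass the test.

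Among the SR genes, whose proteins bind exonic enhancers, 6 of 10 fell. Srsf7 read 374, 372, 379 and 427 RPM in wild-type libraries 1 to 4 and 240, 250, 226 and 284 RPM in knockout libraries 1 to 4 (log2 fold change -0.63 ± 0.085, SE, adjusted p = 0.0021). Srsf3, its close relative and the smallest classical SR protein, read 287, 299, 293 and 314 RPM in wild type and 200, 206, 177 and 212 RPM in knockout (log2 fold change -0.58 ± 0.073, adjusted p = 0.0017). Both proteins also link splicing to mRNA export, and in both genes the lowest wild-type library stood well above the highest knockout library. Srsf1, the founding member of the family and a known oncoprotein, read 57.0, 58.9, 56.8 and 60.9 RPM in wild type and 35.7, 37.6, 33.4 and 49.9 RPM in knockout (log2 fold change -0.58 ± 0.122, adjusted p = 0.010). Srsf6, an exon-definition factor, read 284, 271, 253 and 340 RPM in wild type and 200, 185, 189 and 251 RPM in knockout (log2 fold change -0.48 ± 0.123, adjusted p = 0.021). The margin was narrow in Srsf6, where knockout library 4 came within 2.29 RPM of wild-type library 3. Its call was lost without knockout libraries 1, 2 or 3 or wild-type library 1, with adjusted p values of 0.051 to 0.063. Srsf11 read 71.5, 73.5, 71.3 and 83.4 RPM in wild type and 55.6, 47.5, 56.6 and 60.5 RPM in knockout (log2 fold change -0.44 ± 0.094, adjusted p = 0.011). Srsf4 read 45.7, 41.9, 39.9 and 43.9 RPM in wild type and 34.7, 30.4, 27.4 and 33.9 RPM in knockout (log2 fold change -0.43 ± 0.098, adjusted p = 0.014). Knockout library 4 was the highest knockout library in these SR genes except Srsf4, where library 1 was.

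The other 4 SR genes did not pass, and their groups overlapped. Srsf2, known as SC35 and mutated in human myeloid neoplasms, read 6.24, 8.65, 7.62 and 7.19 RPM in wild type and 7.85, 9.58, 14.4 and 10.5 RPM in knockout (log2 fold change 0.44 ± 0.189, adjusted p = 0.12). DESeq2 gave an adjusted p of 0.042, within a range of 0.042 to 0.27 over 18 alternatives. Srsf10, a splicing repressor active when dephosphorylated, stood at 0.43 on the log2 scale (adjusted p = 0.19), which became -0.27 when junctions with fewer predicted reads were also screened. Without wild-type library 2 it was 0.65 with an adjusted p of 0.040, and the adjusted p ran from 0.040 to 0.79 over 19 alternatives. Srsf5 stood at -0.01 (adjusted p = 0.97) and at 0.07 under TMM, and Srsf9 at -0.20 (adjusted p = 0.22). Among SR junctions, Srsf3 E4.1-E5.2, which leaves a block skipped by most reads, held 2.19%, 1.88%, 2.48% and 1.75% in wild type and 3.44%, 3.11%, 2.83% and 2.51% in knockout. The groups did not overlap, with an adjusted p of 0.44 for the share and of 0.039 by diffSplice, within a range of 0.039 to 0.92 over 13 alternatives. Its partner E3.1-E4.1 contained an implausibly low value and was not tested. In Srsf6, inclusion of block 3 through E3.1 was 7.13 ± 1.17% and 7.65 ± 3.18% (SD, n = 4), with overlapping groups.

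All 8 SF3 genes, those with an Sf3a or Sf3b symbol, fell. An SF3b subunit under another symbol, Phf5a, was read with the other core spliceosome genes below. It did not pass (log2 fold change -0.17, limma, adjusted p = 0.39). SF3a is a complex of 3 proteins in the U2 particle. Its largest subunit gene, Sf3a1, read 197, 212, 202 and 229 RPM in wild-type libraries 1 to 4 and 131, 143, 131 and 161 RPM in knockout libraries 1 to 4 (log2 fold change -0.57 ± 0.086, SE, adjusted p = 0.0031). Sf3a3 read 150, 153, 158 and 170 RPM in wild type and 105, 105, 105 and 116 RPM in knockout (log2 fold change -0.54 ± 0.068, adjusted p = 0.0018). Sf3a2 read 170, 197, 195 and 215 RPM in wild type and 125, 136, 122 and 159 RPM in knockout (log2 fold change -0.52 ± 0.105, adjusted p = 0.0088). The 3 SF3a genes were thus between 67.4% and 69.8% of the wild-type mean. SF3b clamps the branch-point adenosine, and its genes were less uniform. Sf3b3 read 581, 603, 621 and 644 RPM in wild type and 352, 397, 349 and 505 RPM in knockout (log2 fold change -0.63 ± 0.116, adjusted p = 0.0066). Sf3b2 read 736, 759, 747 and 814 RPM in wild type and 626, 608, 600 and 630 RPM in knockout (log2 fold change -0.31 ± 0.056, adjusted p = 0.0059). Sf3b1, the subunit most often mutated in myelodysplastic syndromes, read 873, 836, 811 and 843 RPM in wild type and 718, 711, 721 and 735 RPM in knockout (log2 fold change -0.22 ± 0.050, adjusted p = 0.014). The fall of Sf3b1 did not pass under TMM (-0.14, adjusted p = 0.077, within 0.0080 to 0.085 over 19 alternatives). Sf3b4 (-0.37) and Sf3b6 (-0.33) also fell. Sf3b4 lost its call without any 1 library other than wild-type library 3 or knockout library 4 (adjusted p 0.051 to 0.080), and Sf3b6 without knockout libraries 2 or 3 or wild-type libraries 2 or 4 (0.051 to 0.058). No tested SF3 junction passed the test for a changed share. Of the 119 SF3 junctions, 11 held an implausibly low value and were left out of it.

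Promoter windows were read for 43 of the 48 members, 89.6%, from RefSeq (GRCm38.p6, the 250 bases before each gene's start). CCGGAAG, the core of ETS-factor sites with its flanks, was searched on both strands as CCGGAAG and CTTCCGG, and CACGTG, the E-box bound by MYC, is its own reverse complement; the motifs share no overlapping ends. CCGGAAG was found in 15 of the 43 windows, 34.9%, and in 7.05% of all 27025 windows of the table, which include genes with no reads here. By family it stood in 6 of 7 SF3, 4 of 10 SR, 3 of 9 snRNP and 2 of 17 hnRNP windows. Of the 34 members that fell and had a window, 12 held it, 35.3%, near the 34.9% of all member windows. CACGTG was found in 3 member windows, 6.98%, and in 6.05% of all windows. Among the 8639 tested genes that had a window, the shares were 15.04% for CCGGAAG and 8.60% for CACGTG, so for CACGTG the members lay above the share of all windows and below that of tested genes. As 78.6% of the tested genes had a window, these shares are given as values and the differences between them were not tested. These matches describe letters and were not tested as sites. Since the SF3 family held the motif most often, 3 of its windows are shown 5′ to 3′ on the gene's strand, with CCGGAAG or CTTCCGG in capitals.
Sf3a1 (chr11:4160104-4160353, plus strand): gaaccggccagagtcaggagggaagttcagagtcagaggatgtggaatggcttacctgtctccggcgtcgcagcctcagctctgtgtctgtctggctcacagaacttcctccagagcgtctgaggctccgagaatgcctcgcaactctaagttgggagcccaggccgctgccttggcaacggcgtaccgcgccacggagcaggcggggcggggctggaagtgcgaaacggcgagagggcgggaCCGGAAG
Sf3b2 (chr19:5295458-5295707, minus strand): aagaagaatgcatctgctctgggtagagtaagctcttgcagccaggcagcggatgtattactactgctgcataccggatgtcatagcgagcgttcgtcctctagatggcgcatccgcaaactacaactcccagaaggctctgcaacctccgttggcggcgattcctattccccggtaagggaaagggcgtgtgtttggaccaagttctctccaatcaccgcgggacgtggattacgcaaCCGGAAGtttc
Sf3b3 (chr8:110846804-110847053, minus strand): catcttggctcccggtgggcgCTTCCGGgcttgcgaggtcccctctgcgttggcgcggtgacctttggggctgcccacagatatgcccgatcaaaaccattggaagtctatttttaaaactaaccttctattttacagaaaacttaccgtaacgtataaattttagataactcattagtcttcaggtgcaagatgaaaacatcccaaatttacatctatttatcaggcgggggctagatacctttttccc

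Among the snRNP genes, 9 of 11 fell. The Sm proteins form the ring shared by the major spliceosomal snRNPs. Snrpd1 (SmD1) read 151, 143, 161 and 160 RPM in wild-type libraries 1 to 4 and 99.6, 106, 93.4 and 114 RPM in knockout libraries 1 to 4 (log2 fold change -0.57 ± 0.079, SE, adjusted p = 0.0022). Snrpd3 (SmD3) read 120, 123, 147 and 125 RPM in wild type and 81.3, 96.9, 91.1 and 90.8 RPM in knockout (log2 fold change -0.51 ± 0.087, adjusted p = 0.0048). Snrpb (SmB/B′) read 186, 193, 202 and 210 RPM in wild type and 137, 150, 125 and 155 RPM in knockout (log2 fold change -0.48 ± 0.084, adjusted p = 0.0050). These Sm genes were at 67.0% to 71.6% of the wild-type mean, with no overlap. Snrpd2 (SmD2) read 107, 108, 117 and 122 RPM in wild type and 69.0, 83.0, 84.8 and 98.9 RPM in knockout (log2 fold change -0.44 ± 0.109, adjusted p = 0.019). Snrpe (SmE) read 48.9, 46.5, 44.2 and 48.8 RPM in wild type and 37.3, 39.1, 37.1 and 37.1 RPM in knockout (log2 fold change -0.32 ± 0.071, adjusted p = 0.013). Library 4 was the highest knockout value for Snrpd2 and library 2 for Snrpe. Snrpg (SmG) read 124, 118, 127 and 131 RPM in wild type and 101, 107, 105 and 102 RPM in knockout (log2 fold change -0.26 ± 0.061, adjusted p = 0.014). Snrpf (SmF) read 172, 187, 188 and 209 RPM in wild type and 152, 154, 157 and 171 RPM in knockout (log2 fold change -0.25 ± 0.076, adjusted p = 0.040). In Snrpf the highest knockout and lowest wild-type libraries were 1.08 RPM apart, and the call was lost without any 1 library other than knockout library 4 or wild-type library 1 (adjusted p 0.073 to 0.097). Under TMM neither Snrpg (adjusted p = 0.058, within 0.011 to 0.058 over 19 alternatives) nor Snrpf (0.091, within 0.015 to 0.097) passed. All 7 Sm genes in the table therefore fell on total-read scaling, and 5 of them under TMM.

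The particle-specific snRNP genes were mixed. Snrpa, the U1-A protein of U1, fell by 0.36 on the log2 scale, and Snrpa1, the U2-A′ protein of U2, fell by 0.52. Snrpa lost its call without knockout libraries 2 or 3 or wild-type libraries 1, 2 or 4 (adjusted p 0.057 to 0.072), and Snrpa1 without knockout libraries 1 or 3 or wild-type libraries 1, 3 or 4 (0.053 to 0.073). Under TMM Snrpa did not pass either (adjusted p = 0.054, within 0.0207 to 0.375 over 19 alternatives). Snrpc, the U1-C protein, was at -0.19 (adjusted p = 0.071) and Snrpb2, the U2-B″ protein, at -0.16 (adjusted p = 0.57). Snrpb2 read 45.8, 25.9, 43.2 and 49.5 RPM in wild type and 35.9, 33.8, 37.8 and 35.4 RPM in knockout, so that wild-type library 2 lay below all 4 knockout libraries. Without that library its log2 fold change was -0.36 (adjusted p = 0.035, within 0.035 to 0.87 over 19 alternatives). In Snrpa1, the exon in block 7 was included at 94.0%, 93.6%, 89.0% and 87.2% in wild type and 90.1%, 76.9%, 80.9% and 87.1% in knockout. The groups overlapped, and the skipping join E6.2-E8.1 had an adjusted p of 0.83 for its share and of 0.040 by diffSplice, within 0.040 to 0.98 over 12 alternatives.

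The 4 knockout libraries did not fall equally. Taken over all 48 members, the median level was 72.5%, 76.1%, 70.5% and 82.7% of the wild-type mean in knockout libraries 1 to 4, beside 92.5%, 92.1%, 92.4% and 96.1% over all genes tested. In 31 of the 38 genes that fell, library 4 was the highest of the knockout libraries. Wild-type library 4 also stood highest of its group, at a median of 105% of the wild-type mean. Both libraries numbered 4 had the lowest myeloid marker sum of their group: the sum was 5428 RPM in knockout library 4 and 7152, 8129 and 8389 RPM in knockout libraries 1 to 3, and 1959 RPM in wild-type library 4 against 3044, 3202 and 4696 RPM in wild-type libraries 1 to 3. The erythroid markers summed to 53.3 RPM in wild-type library 4, the lowest of its group, and to 133 RPM in knockout library 4, the highest of its group. The part of these markers in the result was not tested. Without both libraries numbered 4, 37 members fell and 1, Hnrnpll, rose, and the members' median was -0.43. The mean position of junction reads along the members, from 0 at the first junction to 1 at the last, averaged 0.529 ± 0.0037 (SD, n = 4) in wild type against 0.530 ± 0.0029 in knockout (27 genes with enough junctions).

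**Figure D4:**
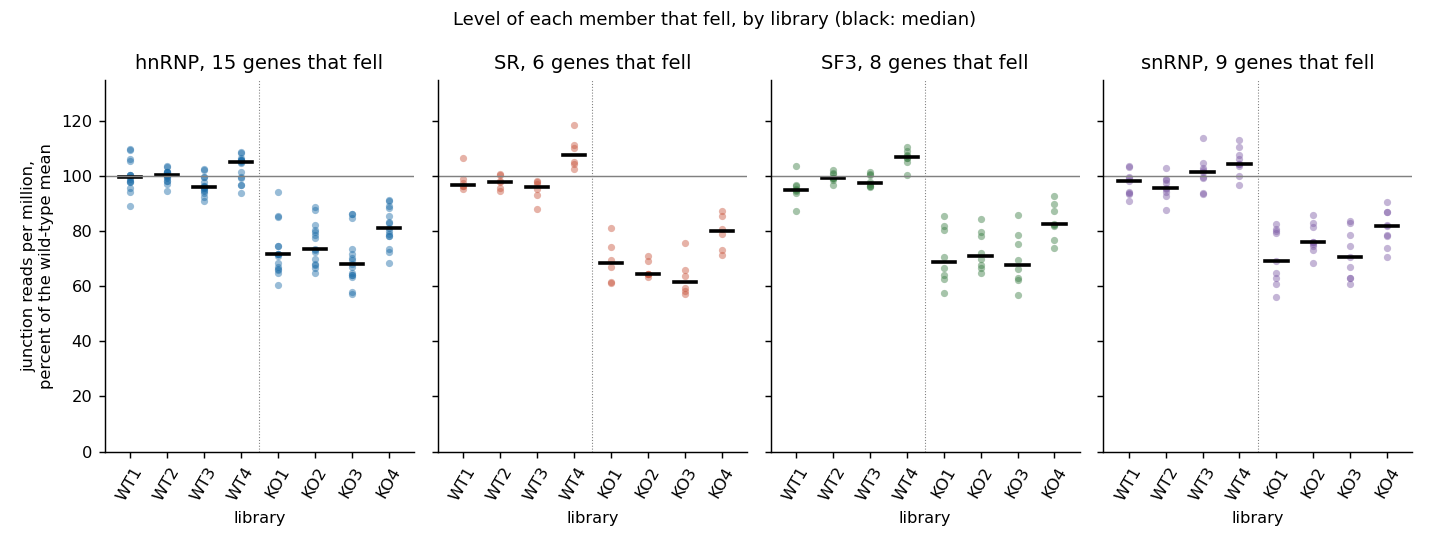
Level of each of the 38 members that fell in each of the 8 libraries (y axis, percent of the gene's wild-type mean, from 0), by family; points are genes and black lines medians. Knockout libraries 1 to 3 have medians below knockout library 4 in each panel, and wild-type library 4 has the highest wild-type median in each panel.

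Single junction values that were implausibly low for their gene affected 26 of the 48 members, and the gene sums above leave those junctions out. Dropped values were those of 6 reads or fewer where 100 or more were predicted from the other junctions of its gene. There were 241 such values in 64 member junctions, 25 to 34 per library. With all junctions kept as deposited, 28 members fell and 0 rose, against 12.1% of all genes lower, and all 28 were among the 38. The 10 others were Hnrnpa1, Hnrnpc, Hnrnpdl, Hnrnpk, Hnrnpm, Hnrnpul1, Srsf1, Srsf11, Snrpa and Snrpf. Snrpf held no dropped value, and its log2 fold change was -0.25 in both fits. Only its adjusted p differed, at 0.063 with all junctions and 0.040 without the dropped ones (limma, within 0.015 to 0.097 over 19 alternatives). Among these 10, Hnrnpdl, an hnRNP D relative, moved most: its log2 fold change was 0.02 (adjusted p = 0.98, within 0.0019 to 0.98 over 19 alternatives) with all junctions and -0.47 without the dropped ones. Srsf1 was at -0.18 (adjusted p = 0.64, within 0.00064 to 0.64) with all junctions, Srsf11 at -0.27 (0.53, within 0.0012 to 0.53) and Hnrnpa1 at -0.32 (0.33, within 3.8e-08 to 0.33). Of the members that did not pass in either fit, Srsf9 was at -0.84 with all junctions and at -0.20 without the dropped ones, and Srsf2 at 1.06 and 0.44. All 8 SF3 genes fell either way. Restricting the test to genes of at least 10 RPM left the member count at 38 of 47, against 22.9% of all genes lower.

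**Figure D5:**
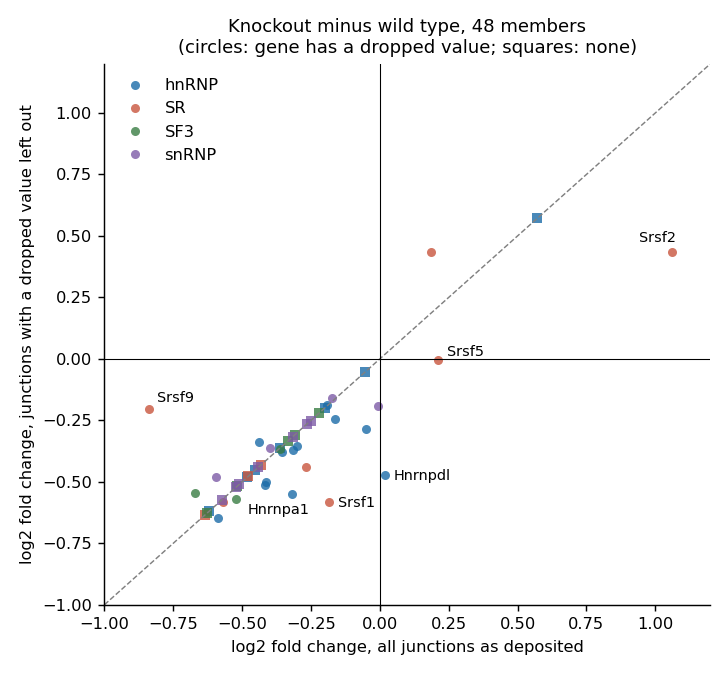
Log2 fold change, knockout minus wild type, of the 48 members with all junctions as deposited (x axis) and with junctions holding a dropped value left out (y axis); circles are genes with a dropped value, squares genes without, colours the families and the dashed line equality. Hnrnpdl moves from 0.02 to -0.47 and Srsf1 from -0.18 to -0.58, while genes without a dropped value lie on the line.

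Partners of these factors were read from 4 further lists, to be read against 16.6% of all genes lower and 10.5% higher. Of 49 other core spliceosome genes tested, 25 fell and 0 rose (median log2 fold change -0.29), among them Lsm7, of the Lsm ring on U6 (-0.73 ± 0.102, SE, adjusted p = 0.0023), the helicase Aqr (-0.51 ± 0.065, adjusted p = 0.0019) and Cdc5l of the Prp19 complex (-0.39 ± 0.057, adjusted p = 0.0029). Of 22 genes that assemble and import snRNPs, 14 fell and 0 rose (median -0.40), among them Wdr77 (-0.87 ± 0.162, adjusted p = 0.0065) and Clns1a (-0.55 ± 0.101, adjusted p = 0.0062), partners of Prmt5 in the complex that methylates Sm proteins, and the cap-binding gene Ncbp1 (-0.43 ± 0.081, adjusted p = 0.0071). Of 36 SR- and hnRNP-related regulators and SR kinases, 16 fell and 2 rose (median -0.27). Raly (-0.52 ± 0.073, adjusted p = 0.0024), Pnn (-0.54 ± 0.082, adjusted p = 0.0032) and Luc7l3 (-0.52 ± 0.081, adjusted p = 0.0035) fell, and the regulator Mbnl2 (0.40, adjusted p = 0.039) and the SR kinase Clk1 (0.28, adjusted p = 0.046) rose. Of 15 nonsense-mediated decay factors, 5 fell and 0 rose (median -0.20), among them Eif4a3 (-0.53 ± 0.068, adjusted p = 0.0019), Upf1 (-0.37 ± 0.066, adjusted p = 0.0058) and Magoh (-0.34 ± 0.078, adjusted p = 0.014). With all junctions as deposited the numbers that fell were 17, 9, 10 and 2 in that order, against 12.1% of all genes, and 0 rose in any of the lists, so that Mbnl2 and Clk1 lost their calls. The 2 of 15 decay factors are then near the share of all genes.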

How the data were processed

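RNA-seq of 4 Cop1 wild-type and 4 Cop1 knockout libraries was analysed; the submitters' processing notes name Trimmomatic 0.39, kallisto and build mm10, and the junction caller is not given in the sources used here. The authors deposited a normalised signal per junction, identified per the file headers by Ensembl gene and exon blocks. Each value equalled reads plus 1, scaled by the library's total and 60 nt, with 0 reads at 0.854, and 100% of values above that gave whole reads (within 0.001). Reads were summed per gene, leaving out junctions with a dropped value, scaled to RPM and fitted in limma 3.58.1 (R 4.3.3, trend and robust, log2(RPM + 1), genes of at least 1 RPM). Shares used log2 odds with 0.5 reads added, for junctions of at least 20 reads. Alternatives were edgeR 4.0.16, DESeq2 1.42.0, TMM, filters, pseudocounts, a replicate block and left-out libraries. The limma fits of gene sums and of shares were tested on simulated data. Named with values in every library were, per family, up to 6 genes past 0.05 with the smallest adjusted p and the 2 with the highest mean; junctions needed 5% of the gene's reads, which Hnrnpa2b1 E10.1-E11.1 met, and the other junctions, exon inclusions and the genes that did not pass were chosen after their values were seen. From each further list, 3 genes with the smallest adjusted p were named, and the 2 that rose. The members, lists, motifs and tests were chosen with earlier results of these data known. Replicate numbers paired the libraries: deviations from group means correlated at 0.38, 0.35, 0.43 and 0.59 within numbers 1 to 4 and at most at 0.16 between numbers. No library duplicated another (lowest chi-square over its degrees of freedom within a group, 12.2). Near-identical paralogs and processed pseudogenes may share reads of Hnrnpa1, Hnrnpa3 and the Sm genes. Symbols covered 13247 of 13378 genes.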

Additional observations from a re-analysis of the deposited data

Results flagged for a closer look

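In 5 of the 70 groups of 4 libraries examined, 1 library lay apart from the other 3, its gap divided by the range being above Dixon's 95% critical value, which chance exceeds in about 1 of 20 groups. Sf3a3 read 116 RPM in knockout library 4 and 105 to 105 RPM in the other knockout libraries. Snrpd3 read 147 RPM in wild-type library 3 and 120 to 125 RPM in the others. Snrpe read 39.1 RPM in knockout library 2 and 37.1 to 37.3 RPM in the others. Srsf7 read 427 RPM in wild-type library 4 and 372 to 379 RPM in the others. The Hnrnpd join E9.2-E10.1 held 0.649% of the gene's junction reads in wild-type library 2 and 0.425% to 0.460% in the others. Each of these genes kept its groups apart with the library included.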

How the results depend on the processing

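Over the alternatives, 27 to 39 members fell. Leaving out each library in turn gave 27 to 38 lower and 0 to 1 higher members, 1898 to 3819 called genes over the whole table (2979 with all libraries, 1898 without knockout library 3), 1 to 4 called member junctions and 1 to 3 member genes with one (1 when wild-type 1, 3 or 4 or knockout 1, 2 or 3 was omitted, 3 when wild-type 2 was). With the replicate block, which uses the pairing of the libraries by number, 38 members fell and 1, Hnrnpll, rose, 5 junctions in 2 members were called, and no other member gene changed its call. With the block and all junctions as deposited, 28 fell and 0 rose. DESeq2 called 2 members higher and the fit without both libraries numbered 4 called 1, with 1 member holding a called junction. Members holding a called junction numbered 0 with all junctions as deposited, where 0 member junctions were called, 5 by diffSplice and 1 at a minimum of 100 reads. Directions turned only for genes that did not pass and for Hnrnpdl. Hnrnpdl was at 0.02 (0.01995) as deposited, with or without the block. Hnrnph2 was at 0.03 (0.03325 by DESeq2, 0.02651 by TMM, 0.02692 by edgeR), and Srsf10 at -0.27 under the stricter screen for dropped values. Srsf5, at -0.01, was at 0.07389 by DESeq2, 0.07313 by TMM, 0.06809 by edgeR, 0.212 as deposited with or without the block, 0.006097 without both libraries numbered 4, and from -0.08902 to 0.05225 when 1 library was omitted, above 0 for knockout 2, 3 or 4 and wild-type 1 or 2. Among 1042 values of single genes and junctions under an alternative, 897 kept direction and call, 112 lost the call and 16 gained it; the causes were not tested. The Hnrnpd join rests on 42 to 80 reads per library, which limits the precision of its share.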
